A study of Mus musculus with 12 samples.

Results

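Hemoglobin is the oxygen carrier of red blood cells, built from alpha-like chains (the Hba- genes in the mouse) and beta-like chains (the Hbb- genes), each holding a heme group. Alas2 is the erythroid form of aminolevulinate synthase, the enzyme that makes the first committed intermediate of heme, and it is transcribed in maturing red cells, whereas its relative Alas1 serves heme synthesis in other tissues, with a large output in the liver. The adult mouse makes its red cells mainly in bone marrow and spleen, and circulating reticulocytes still carry hemoglobin and Alas2 transcripts, so blood held in an organ brings them into its RNA.

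The genes described here are the rows of the count table whose symbol starts with Hba- or Hbb-, plus Alas2, kept where at least 3 of the 12 libraries held 10 or more counts. Of 22537 rows in the table, 9 had such a symbol and 1, Alas2, met the count minimum. The label given to these genes, hemoglobin genes and Alas2, therefore did not hold for the table: no row named Hba- or Hbb- carried signal, and the values below are those of Alas2. A row that the table names Beta-s, set beside Alas2 below, is the only abundant beta-globin row found. It falls outside the symbol rule, and it was chosen after its values were seen.

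Liver poly-A RNA was sequenced from female C57BL/6 mice aged 6 months that had eaten a high-fat diet for 13 weeks, with 3 libraries in each of 4 genotypes, AHR KO, AHR Flox, ARNT KO and ARNT Flox. AHR, the aryl hydrocarbon receptor, is a transcription factor switched on by ligands; it binds DNA together with ARNT, a protein that also serves the hypoxia-inducible factors. The KO groups lack hepatic AHR or ARNT per the series title, and the Flox groups are the lines with the floxed gene. Every group shared strain, sex, age and diet. The sources used here do not name the recombinase, the cells in which it acts or the part of each gene it removes. The comparisons ask which transcripts differ after loss of either protein on this diet, and neither knockout had a chow-fed group among these samples.

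Library totals lay between 23585909 and 33255004 counts. Arnt averaged 22.7 ± 3.30 CPM (counts relative to the TMM-scaled library total) in ARNT KO and 50.2 ± 2.33 CPM in ARNT Flox (SD, n = 3 each), while Ahr averaged 86.5 ± 7.48 CPM in the libraries labelled AHR KO and 68.4 ± 12.9 CPM in AHR Flox. A gene-level count does not show whether part of a gene was deleted, so the Ahr row does not check that label. ARNT KO replicate 3 stood apart from the other 11 libraries on the first principal component, at 65.3 against −30.9 to 30.3, and the ARNT KO results for Alas2 are given with and without it. Of 16 hepatocyte markers, Alb (albumin, set apart after its values were seen) averaged 6311 ± 800 CPM in AHR KO and 84032 ± 5430 CPM in AHR Flox, and 37117 ± 27187 CPM in ARNT KO and 76038 ± 10275 CPM in ARNT Flox (SD, n = 3 each). The sum of the other 15 averaged 75791 ± 6819 CPM in AHR KO and 62865 ± 1989 CPM in AHR Flox, and 58132 ± 12050 CPM in ARNT KO and 55900 ± 4296 CPM in ARNT Flox. Alb was uneven in ARNT KO, at 51926, 53685 and 5740 CPM in replicates 1 to 3, so replicate 3 pulled its mean down.

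The control regions of the erythroid genes are shown first, because their motifs are what Alas2 and beta-globin are known to share: binding sites for the erythroid factor GATA1 and for Klf1, which reads CACCC boxes. The 250 bases before the RefSeq start of each gene are printed 5′ to 3′ on the gene's strand, from RefSeq on GRCm38.p6. Alas2 lies at chrX:150547167-150547416 on the plus strand and Hbb-bs, the gene to which RefSeq assigns the name Beta-s, at chr7:103827929-103828178 on the minus strand. Capitals mark the motifs GATAA and CACCC on either strand, and likewise the promoter elements CCAAT and TATAA where found.
Alas2: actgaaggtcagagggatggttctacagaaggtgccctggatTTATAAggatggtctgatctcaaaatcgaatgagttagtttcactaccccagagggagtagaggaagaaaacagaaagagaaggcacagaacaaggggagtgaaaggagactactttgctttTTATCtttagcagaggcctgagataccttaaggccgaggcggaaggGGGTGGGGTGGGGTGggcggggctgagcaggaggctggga
Hbb-bs: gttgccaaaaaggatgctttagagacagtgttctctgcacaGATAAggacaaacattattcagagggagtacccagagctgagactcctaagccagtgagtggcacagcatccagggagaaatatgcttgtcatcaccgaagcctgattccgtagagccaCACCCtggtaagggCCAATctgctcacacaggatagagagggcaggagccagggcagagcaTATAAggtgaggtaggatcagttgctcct

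In the Alas2 window GATAA stood on the opposite strand (TTATC) 86 bases before the start, and CACCC on the opposite strand (GGGTG) at 40, 35 and 30 bases before it. TATAA, which reads TTATA on the opposite strand, stood in an overlapping pair of matches at 207 and 208 bases before the start, and CCAAT was not found. The Hbb-bs window held GATAA at 209, CACCC at 90, CCAAT at 76 and TATAA at 29 bases before the start. Such letters are common: searched on both strands over 27025 promoter windows of the same length, GATAA was found in 23.0%, CACCC in 51.3%, CCAAT in 34.5% and TATAA in 23.5%. The core letters of the site bound by AHR with ARNT, GCGTG, stood in 28.2% of windows, and those of the site bound by hypoxia-inducible factors with ARNT, ACGTG, in 16.6%. Neither core was found in the Alas2 or the Hbb-bs window, whereas the windows of Hba-a1 and Hba-a2, genes with empty rows here, held 2 matches to GCGTG each and 0 to ACGTG. Each match is a match of letters in the window and no more.

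The hemoglobin rows were empty. The alpha-globin rows are Hba-x, the embryonic zeta chain, and Hba-a1 and Hba-a2, the adult alpha chains, and all 3 were at 0 in every one of the 12 libraries. The beta-globin rows are Hbb-b1 and Hbb-b2, names of adult chains, and Hbb-bh1, Hbb-bh2 and Hbb-y, which belong to the embryonic part of the cluster. Of these 5, Hbb-y had 1 count in ARNT Flox replicate 2 and 0 elsewhere, and the others had 0 throughout. RefSeq gives Hbb-b1 the positions 38285 to 39684 and Hbb-b2 53494 to 54867 under chromosome 7, whereas Hbb-bs lies at 103826523 to 103827928. Whether Hbb-b1 and Hbb-b2 stand for adult genes that this strain carries was not tested. A count of 0 allows up to 3 counts, or 0.0861 to 0.126 CPM depending on the library, for counting error only. No row lay near the count minimum: Alas2, the only row inside it, had a lowest count of 413, and Hbb-y, the highest of those outside it, reached 1. The theta-globin rows Hbq1a and Hbq1b, outside the rule by symbol, held 2 and 4 counts in all libraries together.

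The zeros of the alpha-globin rows stand beside a property of their sequence. Among the 50-base windows of the GENCODE M21 transcripts, 550 of 616 in Hba-a2 (89.3%) also occurred in Hba-a1, and 550 of 761 in Hba-a1 (72.3%) also occurred in Hba-a2, so most reads from one copy would match the other. Between the adult beta-globin genes the sharing was less, with 381 of 716 windows of Hbb-bs (53.2%) also in Hbb-bt and 381 of 654 of Hbb-bt (58.3%) also in Hbb-bs. Alas2 shared 0 of its 2398 windows with the globin genes. How reads that match several places were counted is not stated in those sources, and the part of this sharing in the zeros was not tested. The zeros are therefore a statement about the rows, not about alpha-globin RNA in these livers.

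Alas2, on chromosome X at 150547417 to 150570622 (GRCm38.p6, RefSeq), held 413 to 932 counts per library and 7500 in all. Its levels were 16.9, 13.4 and 14.6 CPM in AHR KO replicates 1 to 3, against 18.4, 19.3 and 27.8 CPM in AHR Flox. They were 23.5, 29.6 and 19.2 CPM in ARNT KO, against 20.8, 25.2 and 19.2 CPM in ARNT Flox. The 3 AHR KO libraries were the lowest of all 12, and the highest of them lay below the lowest library of each other group. The other 3 groups overlapped one another throughout.

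**Figure D1:**
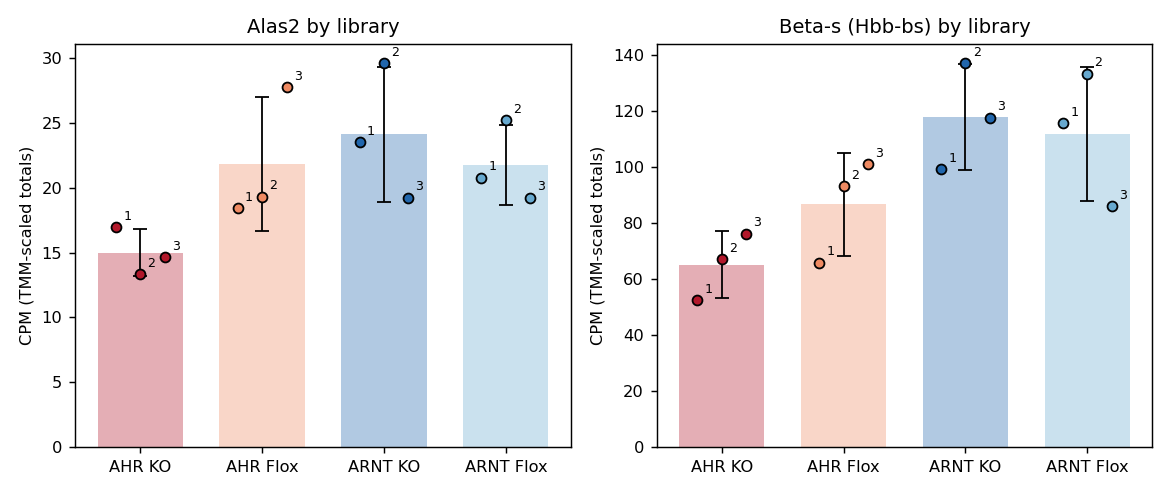
Level of Alas2 and of the Beta-s row in CPM in each of the 12 livers, by genotype, with a point per library and a bar at the group mean ± SD (n = 3). The 3 AHR KO libraries have 13.4 to 16.9 CPM of Alas2, below all other libraries, whereas Beta-s levels of AHR KO and AHR Flox overlap.

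By group mean, ARNT KO stood highest at 24.1 ± 5.21 CPM, followed by AHR Flox at 21.8 ± 5.17, ARNT Flox at 21.7 ± 3.12 and AHR KO at 14.98 ± 1.82 CPM (SD, n = 3 each). The first 3 means lay within 1 SD of each other. Counting error on a single library was 3.28% to 4.92% of its value, and the coefficient of variation within a group was 12.1% to 23.7%. In whole-liver RNA, fewer cells of a type and less RNA per cell cannot be told apart.

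Mean Alas2 CPM was 31.4% lower in AHR KO than in AHR Flox, and the fitted log2 change was −0.54 ± 0.19 (SE; 95% interval −0.96 to −0.12). The unadjusted p was 0.0161, and the adjusted p was 0.286 (edgeR quasi-likelihood F test, Benjamini-Hochberg over 13968 genes), so Alas2 was not called. All 9 pairs of an AHR KO with an AHR Flox library pointed lower. An exact permutation test, two-sided, gave p = 0.1, the smallest that 3 against 3 libraries allow. In this comparison 0.0788% of genes were called at an adjusted p under 0.05 and 11.9% had an unadjusted p under 0.05, while in 9.46% the highest AHR KO library was lower than the lowest AHR Flox library. Ranked by p, Alas2 stood at 783, with 5.60% of genes ahead of it. The size of the difference leaned on AHR Flox replicate 3, the highest of the controls: without it the log2 change was −0.34, with an edgeR adjusted p of 0.706.

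Loss of ARNT was set against its own control line in the same fit. The log2 change of Alas2 in ARNT KO against ARNT Flox was 0.15 ± 0.19 (SE; 95% interval −0.27 to 0.56), with an edgeR adjusted p of 0.995 and overlapping groups, and 0.0573% of genes were called. An exact permutation test, two-sided, gave p = 0.6. Without ARNT KO replicate 3, the library that stood apart, the log2 change was 0.29 with an edgeR adjusted p of 0.468. The interval leaves room for a change in either direction, up to 0.56 higher on the log2 scale.

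Whether the knockouts differed in their effect on Alas2 was tested directly. The ARNT KO effect minus the AHR KO effect was 0.69 ± 0.27 on the log2 scale (SE; 95% interval 0.10 to 1.28). Its unadjusted p was 0.0260 and its edgeR adjusted p 0.452, in a comparison where 0.043% of genes were called and 9.51% had an unadjusted p under 0.05. Alas2 therefore did not pass in the test of the difference either. Without ARNT KO replicate 3 the difference was 0.84, with an edgeR adjusted p of 0.130.

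The control lines had like levels of Alas2, at 21.7 ± 3.12 CPM in ARNT Flox and 21.8 ± 5.17 CPM in AHR Flox (SD, n = 3 each). The log2 difference was −0.00 ± 0.19 (SE; 95% interval −0.42 to 0.41), with an edgeR adjusted p of 0.993. Between these lines 0.329% of all genes were called by edgeR. The interval is wide enough to hold a difference of −0.34, the smallest one between AHR KO and AHR Flox under the alternatives.

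**Figure D2:**
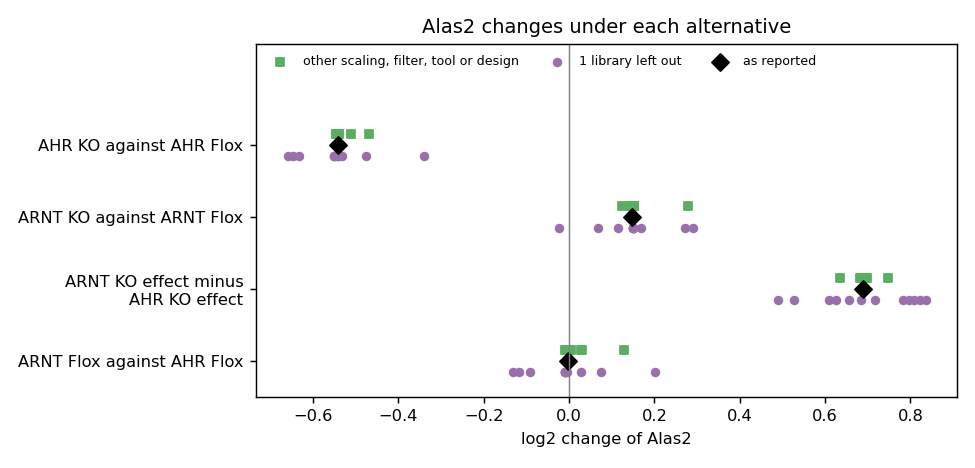
Log2 change of Alas2 in each comparison under the main fit and under every processing alternative, including each library left out in turn. All values for AHR KO against AHR Flox lie below 0, between −0.66 and −0.34, all differences between the effects lie above 0, between 0.49 and 0.84, and values of the other comparisons fall on both sides of 0.

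Beta-s is the name RefSeq lists as a synonym of Hbb-bs, the adult beta-s globin gene on chromosome 7 (103826523 to 103827928). The row held 1607 to 4312 counts per library and 34989 in all. Its levels were 52.3, 66.9 and 76.1 CPM in AHR KO, against 65.8, 93.1 and 101 CPM in AHR Flox, and 99.1, 137 and 118 CPM in ARNT KO, against 116, 133 and 86.1 CPM in ARNT Flox. AHR KO overlapped AHR Flox, since AHR KO replicates 2 and 3 exceeded AHR Flox replicate 1. The log2 change was −0.41 ± 0.21 (SE) in AHR KO with an edgeR adjusted p of 0.464, and 0.08 ± 0.20 in ARNT KO with an edgeR adjusted p of 1.00. Neither the difference between those effects, 0.49 ± 0.29, nor that between the control lines, 0.37 ± 0.21 with ARNT Flox above AHR Flox, passed the edgeR test, at adjusted p of 0.673 and 0.336.

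Across the 12 libraries Alas2 and Beta-s went together. Pearson's r of the log2 CPM was 0.745 (permutation p = 0.00502) and Spearman's rho 0.832 (permutation p = 0.00130), each from 100000 resamples that ignore the groups. This was the only relation tested, by these 2 coefficients. Without the pair of libraries farthest from the median of Alas2, ARNT KO replicate 2 and AHR KO replicate 2, r was 0.638 and rho 0.770. With each group's mean subtracted, r was 0.450 and rho 0.643, and an exact permutation test within the groups, two-sided, gave p = 0.220 and p = 0.0640, so the relation was not shown apart from the groups. Without ARNT KO replicate 3, r was 0.789.

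**Figure D3:**
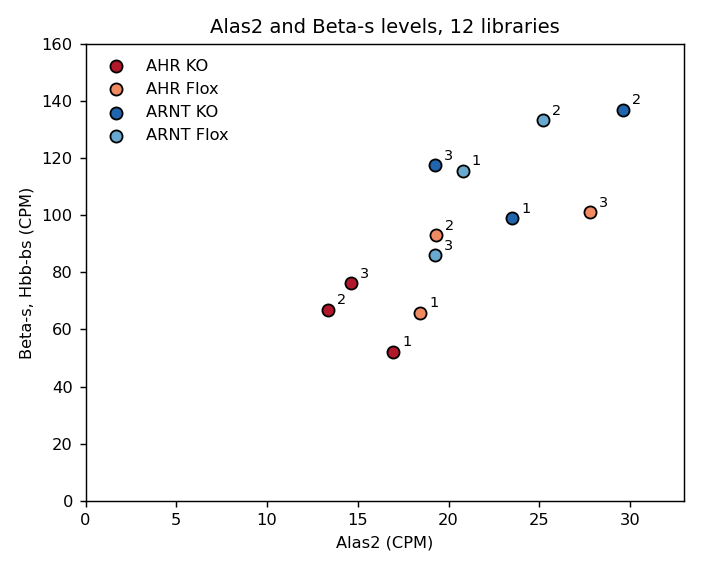
Beta-s against Alas2 level, both in CPM on linear axes from 0, with a point per library, numbered by replicate and coloured by genotype. The AHR KO libraries sit at the low end of the Alas2 axis, ARNT KO replicate 2 is highest on both axes, and Pearson's r of the log2 values over 12 libraries is 0.745.

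The ratio of Beta-s to Alas2 overlapped between each knockout and its control. Beta-s counts were 3.08 to 6.11 times the Alas2 counts, with a median of 4.72. The ratio averaged 4.43 ± 1.17 in AHR KO and 4.01 ± 0.702 in AHR Flox, and 4.99 ± 0.997 in ARNT KO and 5.11 ± 0.564 in ARNT Flox (SD, n = 3 each). In both pairs of knockout and control the means differed by less than the SD of either group. The means of ARNT Flox and AHR Flox were further apart than either SD, although their ranges, 4.47 to 5.56 in ARNT Flox and 3.57 to 4.82 in AHR Flox, overlapped. Per kilobase of exon (2403 bases for Alas2, 768 for Hbb-bs in GENCODE M21) Alas2 stood at 5.56 to 12.3 and Beta-s at 68.1 to 178 CPM per kilobase, a ratio of 9.65 to 19.1. The highest ratio of counts was in ARNT KO replicate 3. Whether the Beta-s row holds all beta-globin reads is not known, since it shares sequence with Hbb-bt as given above.

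Other red cell transcripts were read from lists of erythroid genes, to see whether they moved with Alas2. Of 20 membrane and cytoskeleton genes, 19 were in the table and 9 passed the expression filter. Of 30 erythroid transcription and differentiation genes, 29 were in the table and 24 passed. None of these was called in AHR KO or ARNT KO by edgeR, by DESeq2 or by limma-voom. At an unadjusted p under 0.05, edgeR gave 0 membrane genes higher and 1 lower, and 2 differentiation genes higher and 1 lower, in AHR KO against AHR Flox, where 6.33% of all genes were higher and 5.58% lower by that measure. Against ARNT Flox, ARNT KO had 0 higher and 1 lower in each list, beside 3.36% of all genes higher and 2.53% lower. Median log2 changes in AHR KO were 0.10 and 0.04 for these lists, beside 0.005 for all genes tested.

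Slc4a1, the band 3 anion exchanger and the chief membrane protein of red cells, was near the detection limit. It held 9, 6 and 3 counts in AHR KO, against 11, 18 and 23 in AHR Flox, and 5, 12 and 13 counts in ARNT KO, against 15, 16 and 9 in ARNT Flox. The AHR KO libraries all lay below AHR Flox, as in 9.46% of all genes, and ARNT KO overlapped ARNT Flox. The log2 change in AHR KO was −1.71 ± 0.48 (SE), at an unadjusted p of 0.00439 and an edgeR adjusted p of 0.175, so Slc4a1 was not called. Over the 12 libraries its r with Alas2 was 0.592, described here without a test because the libraries and their depth are shared.

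Genes typical of red cell precursors differed widely in counts. Hemgn, a nuclear protein of erythroid precursors, had 10 counts over all libraries, Gata1, the master erythroid transcription factor, had 9, and Rhag, the Rh-associated glycoprotein, had 7. Others of the lists had more over all libraries, with 2785 for Klf1, 2574 for Lmo2 and 654 for Tal1, transcription factors of the red lineage. Epo, the hormone that drives red cell formation, had 0 counts in all 12 libraries. Ahsp, also on the differentiation list, had no row in the table under the symbols searched.

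**Figure D4:**
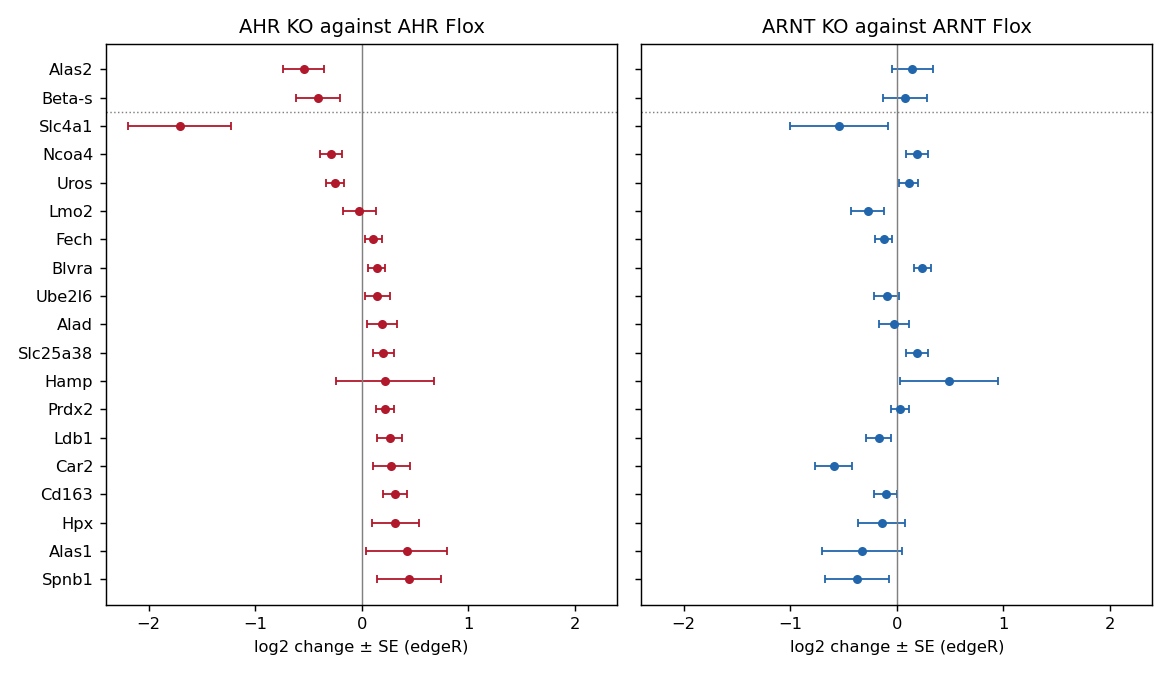
Log2 change (point) with its SE (bar) for Alas2, Beta-s (above the dotted line) and the erythroid, heme and iron list genes named in the text, in AHR KO against AHR Flox and in ARNT KO against ARNT Flox, from the same edgeR fit. In AHR KO the values of Alas2 (−0.54) and Slc4a1 (−1.71) lie below 0, as do those of Beta-s (−0.41), Uros (−0.25) and Ncoa4 (−0.28), and no gene shown is called after adjustment over 13968 genes.

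Prdx2 and others of the listed genes are also used by cells outside the red lineage. Among the smallest p in AHR KO were Prdx2, a peroxiredoxin abundant in red cells, at a log2 change of 0.22 (edgeR p 0.0215 unadjusted), Ldb1, a cofactor of GATA1 complexes, at 0.26 (p 0.0433 unadjusted), and the spectrin beta chain Spnb1 at 0.45, none called by edgeR. In ARNT KO the smallest p belonged to Car2, carbonic anhydrase II, with 12.04, 13.4 and 21.0 CPM, against 25.1, 21.8 and 23.2 CPM in ARNT Flox. All ARNT KO libraries lay below ARNT Flox, as in 4.9% of all genes, with a log2 change of −0.59, an unadjusted p of 0.00570 and an edgeR adjusted p of 0.569. Without ARNT KO replicate 3 the change was −0.87 with an edgeR adjusted p of 0.00346, in a fit that called 1.37% of genes. Limma-voom with sample quality weights also called it, at −0.75 with an adjusted p of 0.00382, and no other alternative did.

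Like Alas2, no listed gene of heme synthesis was called in either knockout. All 11 listed genes, from the mitochondrial start through the cytosolic steps to ferrochelatase and their transporters, passed the filter, and 0 were called higher and 0 lower in AHR KO or ARNT KO by edgeR, DESeq2 or limma-voom. At an unadjusted p under 0.05, edgeR gave 0 higher and 1 lower in AHR KO, beside 6.33% and 5.58% of all genes, and 0 in either direction in ARNT KO, beside 3.36% and 2.53%. The median log2 change was 0.07 in AHR KO and 0.00 in ARNT KO.

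Alas1, the housekeeping and liver form of the first enzyme, had 1712, 675 and 1708 CPM in AHR KO, against 644, 1119 and 1291 CPM in AHR Flox. Those groups overlapped, and the log2 change was 0.42 ± 0.38 (SE) with an edgeR adjusted p of 0.721. Alas1 had 629, 1015 and 1153 CPM in ARNT KO, against 836, 1223 and 1449 CPM in ARNT Flox, again with overlap. Within AHR KO, and within AHR Flox, the libraries stood in the same order for Alas1 as for Alas2. Within ARNT KO and within ARNT Flox they did not, since replicate 3 had the most Alas1 and the least Alas2 of its group.

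Uros, uroporphyrinogen III synthase, was the heme gene with the smallest p. It had 21.1, 20.6 and 23.0 CPM in AHR KO, against 24.7, 26.4 and 25.8 CPM in AHR Flox. The groups did not overlap, with AHR KO lower, as in 9.46% of all genes. The log2 change was −0.25 ± 0.09 (SE), at an unadjusted p of 0.0134 and an edgeR adjusted p of 0.268. Fech, ferrochelatase, which inserts iron into the ring, averaged 196 ± 12.9 CPM in AHR KO and 182 ± 5.87 CPM in AHR Flox, and 174 ± 11.1 CPM in ARNT KO and 190 ± 6.87 CPM in ARNT Flox (SD, n = 3 each). Neither difference was called by edgeR, nor was any for Alad, which condenses aminolevulinate, at 199 ± 6.19 CPM in AHR KO and 174 ± 7.12 CPM in AHR Flox.

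Genes that clear heme and handle iron, which the liver expresses strongly, gave no called change in either knockout by edgeR, DESeq2 or limma-voom. Of 12 tested genes for heme scavenging and breakdown, 1 was higher and 0 lower at an unadjusted edgeR p under 0.05 in AHR KO, and 1 higher and 0 lower in ARNT KO. Over all genes these shares were 6.33% and 5.58% in AHR KO and 3.36% and 2.53% in ARNT KO, so single genes of so short a list are near the background. In AHR KO this was Cd163, the macrophage receptor for hemoglobin bound to haptoglobin, at a log2 change of 0.31 (p 0.0148 unadjusted). In ARNT KO it was Blvra, biliverdin reductase A, at 0.24 (p 0.0100 unadjusted). Hpx, hemopexin, which binds free heme in plasma, averaged 4817 ± 1138 CPM in AHR KO and 3869 ± 579 CPM in AHR Flox, with a spread as large as the difference.

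Of 24 tested iron genes, 0 were higher and 1 lower at an unadjusted edgeR p under 0.05 in AHR KO, and 0 in either direction in ARNT KO, below the same shares of all genes. The 1 lower gene was Ncoa4, the receptor that sends ferritin to the lysosome, at −0.28 (p 0.0181 unadjusted). Hamp, hepcidin, the liver hormone that limits iron release, had 895, 1197 and 498 CPM in AHR KO, against 995, 661 and 567 CPM in AHR Flox, and 478, 456 and 279 CPM in ARNT KO, against 201, 141 and 523 CPM in ARNT Flox. Both pairs of groups overlapped.

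Between the control lines, where Alas2 had nearly the same level, the same lists held differences under some settings. By the main edgeR fit 0 genes of the erythroid, heme and iron lists were called in ARNT Flox against AHR Flox, and the unadjusted counts were 4 erythroid genes higher and 3 lower, 0 heme synthesis genes higher and 3 lower, and 0 iron genes higher and 4 lower, beside 10.5% of all genes higher and 9.33% lower. DESeq2 called Lmo2, a partner of Tal1 in erythroid gene control, and Car2 higher, and Uros lower, in ARNT Flox, where it called 4.18% of all genes. Limma-voom without sample weights called none of them. With sample weights limma-voom called Lmo2, Car2 and Uros, at adjusted p of 0.0105, 0.00235 and 0.00268. EdgeR fitted to the control lines alone called them too, at adjusted p of 0.0161, 0.00257 and 0.0101. Both fits also called Slc25a38 and Tmem14c, and the weighted fit Hamp, Urod, Slc2a1 and Tspan33. Over all alternatives 12 to 2395 genes were called between the control lines. Without ARNT KO replicate 3, a library of neither control line, edgeR called 3 differentiation genes higher (Ube2l6, Lmo2 and Car2) and 1 lower (Slc25a38). It also called the heme synthesis genes Urod and Uros lower, 2 genes of heme scavenging higher (Slc48a1 and Blvrb) and 1 lower (Slc46a1), and the ferritin gene Fth1 higher. That fit called 10.9% of all genes. All groups share 1 estimate of spread in that fit.

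The genes whose levels tracked Alas2 most closely were outside the erythroid, heme and iron lists. Across 12258 genes with a mean of at least 1 CPM, the 10 highest Pearson r with Alas2 over the 12 libraries (log2 CPM) ran from 0.873 to 0.946. They were Gopc, a PDZ protein of the Golgi, at 0.946, E430025E21Rik at 0.922, the importin Kpna3 at 0.888, the coatomer subunit Copg2 at 0.884, Sec22c at 0.879, the signalling inhibitor Lefty1 at 0.878, Nudt12 at 0.876, 1110037F02Rik and the chromatin remodeller Smarcad1 at 0.874 each, and 2610019F03Rik at 0.873. With group means subtracted, r was 0.926 for Gopc, 0.931 for E430025E21Rik and 0.654 for Smarcad1. In all, 57 genes exceeded 0.8 and 48 lay below −0.8. Beta-s stood at rank 138, with 1.12% of genes more like Alas2. With group means subtracted Beta-s stood at rank 1498. These are descriptions over 12 libraries that share their depth and their groups, picked as the extremes of many.

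Markers of other cells that blood or liver brings were summed beside the Alas2 difference in AHR KO. Platelet markers came to 24.6 ± 1.08 CPM in AHR KO and 22.6 ± 1.10 CPM in AHR Flox, with 9 of 16 markers above the filter and 0 of them without counts. Neutrophil markers came to 44.9 ± 28.4 CPM in AHR KO and 43.6 ± 19.0 CPM in AHR Flox. Lymphocyte markers came to 14.8 ± 1.52 CPM in AHR KO and 11.5 ± 1.96 CPM in AHR Flox (SD, n = 3 each). The mean of each of these sums was no lower in AHR KO than in AHR Flox.

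Kupffer cell and macrophage markers, whose cells take up aged red cells, came to 717 ± 59.5 CPM in AHR KO and 699 ± 141 CPM in AHR Flox, and liver endothelial markers to 498 ± 67.3 CPM in AHR KO and 506 ± 39.4 CPM in AHR Flox. In the ARNT groups the neutrophil sum was 28.1, 48.8 and 223 CPM in ARNT KO, against 103, 80.7 and 81.4 CPM in ARNT Flox, with the highest value in ARNT KO replicate 3 and the other ARNT KO libraries below ARNT Flox. Among the hepatocyte markers given above, Alb had lower values in AHR KO along with Alas2, and the summed level of the rest did not. The part of any of these cell types in the Alas2 result was not tested.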

How the data were processed

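The deposited file is a table of raw counts, whole numbers for 22537 symbols, with a column for each of the 12 libraries. RNA came from liver by Trizol, was selected for poly-A and was prepared with the NEBNext Ultra II kit, per the labels. The submitters' processing notes list mm10 as the build, STAR 2.5.4b, STAR 2.6.0c, DESeq2 1.20.0, R 3.5.1 and bcl2fastq 2.20. Counter, strand setting, annotation and treatment of reads with several matches were not given in the sources used here. Beyond 3 per genotype, the labels do not describe each library's mouse, so p-values measure the spread between these libraries.

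Counts were fitted with edgeR 4.0.16 (R 4.3.3, limma 3.58.1), all 12 libraries together with a mean per group, filterByExpr (minimum count 10, total 15; 13968 genes with 99.98% of counts), TMM scaling, the two-sided quasi-likelihood F test and Benjamini-Hochberg adjustment over all genes tested, with a call at an adjusted p under 0.05. The common biological coefficient of variation was 17.5%. The code was tested on simulated data. CPM use TMM totals (log2 CPM with prior count 2). Intervals use the t distribution on the fit's degrees of freedom and the zero limit is 3 counts, which covers counting error only since reads that carry no molecular identifier need not be separate molecules. Group mates were not duplicates, with a chi-square per degree of freedom of 17.5 to 252.

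The genes, lists and comparisons were chosen with earlier results of these data known. Named genes are every row with the symbols, the 3 list members of smallest p per comparison, the most abundant erythroid, heme and iron genes, and the 10 genes most like Alas2. Beta-s, and others where the text says so, were chosen after their values were seen. Alternatives were DESeq2 1.42.0, limma-voom with and without sample weights, other scalings and filters, only the groups compared, the replicate number as a block and each library left out. Same-numbered ARNT Flox and AHR Flox libraries had residual correlations of 0.327, 0.153 and 0.101. All exceeded 0.1, but the labels do not say that the numbers pair these groups. A value of this size also occurred elsewhere, at 0.141 for replicate 3 of AHR KO and AHR Flox. Blocked, 23 genes were called between the control lines, against 46. In the other comparisons not all correlations exceeded 0.1. Some listed genes are not reported here.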

Additional observations from a re-analysis of the deposited data

How the results depend on the processing

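Alas2 was called in 0 of the alternatives. Its log2 change in AHR KO against AHR Flox stayed below 0, from −0.66 to −0.34, with adjusted p of 0.140 to 0.706 (edgeR, DESeq2 or limma-voom), and the difference between the effects stayed above 0, from 0.49 to 0.84. With the replicate number as a block, edgeR gave −0.54 (adjusted p 0.308) in AHR KO, 0.15 (0.958) in ARNT KO, 0.69 (0.461) for the difference and −0.01 (0.981) between control lines. The block changed no call on the genes named. In ARNT KO the Alas2 change was −0.024 without ARNT KO replicate 2, and leaving out 1 library gave up to 0.29. Between the control lines, a main value near 0, it was positive with upper quartile scaling (0.028), a filter at 1 CPM (0.00369), limma-voom (0.031), sample weights (0.13), only those groups (0.00174), and without ARNT Flox replicate 1 (0.029) or 3 (0.08) or AHR Flox replicate 3 (0.20), and down to −0.13 without 1 library. Beta-s in ARNT KO was −0.04 without ARNT KO replicate 2 and −0.078 without ARNT Flox replicate 3, with up to 0.23 without another library. Lrp1 in ARNT KO was 0.00532 without ARNT KO replicate 3 and down to −0.28 without another. Slc48a1 in ARNT KO was −0.45 without that library, up to 0.63 without another, and −0.31 with sample weights. The cause was not tested. Genes called ranged from 5 to 359 in AHR KO (main 11), 1 to 422 in ARNT KO (8), 1 to 238 for the difference (6) and 12 to 2395 between control lines (46). The planned share of alpha-globin and summed globin level were not run, since those rows held 1 count in all. Depth gives no limit for Alas2, whereas Slc4a1 rests on few counts per library.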
